A study of Mus musculus with 9 samples.

Results

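The genes described are 9 genes of haem synthesis: the enzyme genes Alas1, Alas2, Alad, Uros, Urod, Cpox, Ppox and Fech, and Slc25a38, which encodes a mitochondrial glycine carrier and not an enzyme. They were picked by symbol as genes of 1 pathway, with earlier results of these data known, and make up 9 of the 24391 gene rows of the count table. All 9 passed the filter on low counts, which kept 12573 rows. The RNA came from bone marrow cells of C57BL/6 mice aged 6 to 8 weeks with leukaemia driven by AML1-ETO9a, a truncated form of the fusion between the transcription factor AML1 (RUNX1) and the corepressor ETO (RUNX1T1). The cells had been sorted on CD43, a sialoglycoprotein of leukocytes, and on c-Kit, the stem cell factor receptor. The 3 sorted populations were CD43++ckit+, CD43+ckit- and CD43-ckit-, with 3 RNA-seq libraries each. All 3 came from leukaemic marrow of the same model, and no healthy marrow was analysed here. The labels do not say how the fusion was introduced or whether each sorted cell carried it. Whether the 3 libraries of a population stem from different mice is also unstated, so a p-value speaks only of the spread among these libraries, which may be technical.

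Haem is built from glycine and succinyl-CoA in a chain of reactions that starts in the mitochondrion, passes through the cytosol and ends in the mitochondrion, where iron is inserted. The first reaction sets the rate of the pathway and is carried out by the Alas1 product in most tissues and by the Alas2 product in developing red cells. In erythroid cells the enzyme genes are induced by GATA1 and its partners, and translation of Alas2 mRNA is held back when iron is scarce.

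CD43++ckit+ cells held less transcript of 8 of the 9 genes than CD43+ckit- cells and, with TMM scaling, less of 7 than CD43-ckit- cells, where Alad lost its call with library totals. Alas1, which encodes the first enzyme of non-erythroid cells, was called in neither comparison by edgeR's quasi-likelihood test with TMM, and Cpox not in the second, where DESeq2's Wald test called both lower (adjusted p = 0.0352 and 0.00646). With library totals edgeR's test called Cpox higher in CD43++ckit+ cells than in CD43-ckit- cells (adjusted p = 0.00276), so its direction depended on the scaling. The gap was widest for the erythroid first enzyme, Alas2, whose level was 28.5-fold lower than in CD43+ckit- cells and 125.1-fold lower than in CD43-ckit- cells. Between CD43+ckit- cells and CD43-ckit- cells the pathway did not move as a block: the first and last steps (Alas1, Alas2 and Fech) and Urod were lower in CD43+ckit- cells with TMM, Alad was higher, and the other 4 genes were not called. With library totals Urod turned sign there, Alas1 and Fech lost their calls, and 5 genes were called higher and 1 lower. The 5 calls with TMM were near the share over all genes, 51.9%. These are bulk samples, so fewer cells of a type and less RNA per cell cannot be told apart.

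Total counts ranged from 17966197 to 31781746 per library, and the lowest count of any member in a library was 294. Levels are given in CPM, on library sizes scaled by TMM, a trimmed mean of gene ratios. A log2 fold change is the value of the first-named population less that of the second, and a gene was called at an adjusted p under 0.05 in edgeR's quasi-likelihood test. TMM factors ran from 0.589 to 1.41, so the scaling matters. Library totals in its place moved the median of all genes by 0.26 (CD43++ckit+ versus CD43+ckit-), 0.91 (CD43++ckit+ versus CD43-ckit-) and 0.64 (CD43+ckit- versus CD43-ckit-) on the log2 scale. Size factors by edgeR's relative log expression method moved it by -0.04, -0.24 and -0.20. Calls higher in the first-named population made up 49.4%, 58.9% and 59.7% of all calls with TMM, 67.0%, 82.2% and 85.2% with library totals, and 45%, 49.5% and 45.8% with size factors. Kit, the gene of c-Kit, stood at 146.0 to 175.5 CPM in CD43++ckit+ cells, 7.80 to 21.0 CPM in CD43+ckit- cells and 18.9 to 42.1 CPM in CD43-ckit- cells. Spn, the gene of CD43, stood at 431.7 to 555.2 CPM, 137.2 to 232.5 CPM and 71.7 to 180.1 CPM in that order, so its libraries overlapped between the CD43+ckit- and CD43-ckit- populations. Library 3 of CD43++ckit+ and library 1 of each other population correlated least with the rest of their population (mean r 0.943, 0.974 and 0.970). Without these 3, a choice made after seeing the data, 9, 8 and 7 of the 9 genes were called in the 3 comparisons, against 8, 7 and 5 with all libraries. The share of all tested genes called was also higher without them, at 67.6%, 81.9% and 70.2%, against 39.8%, 67.4% and 51.9%.

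Of 16 erythroid marker genes, 15 had a row, and none of these was at 0 in any library. Their summed level was 6095 to 6636 CPM in CD43++ckit+ cells, 21503 to 24898 CPM in CD43+ckit- cells and 36323 to 59367 CPM in CD43-ckit- cells. The CD43++ckit+ libraries lay below all others, as they did for 7 of the haem genes, and the CD43+ckit- libraries lay below those of CD43-ckit-, as they did for 4. In CD43++ckit+ cells 14 markers were lower and 1, Car1, higher than in CD43+ckit- cells, and 13 were lower and 1, again Car1, higher than in CD43-ckit- cells. Of all tested genes, 20.1% were lower and 19.7% higher in the first comparison, and 27.7% and 39.7% in the second. In CD43+ckit- cells 4 markers were lower than in CD43-ckit- cells (among them Trim10, Tspan33 and Bpgm) and 2 higher (Rhag and Car1), beside 20.9% and 31.0% of all tested genes. The part that the share of erythroid cells played in the haem results was not tested.

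**Figure D1:**
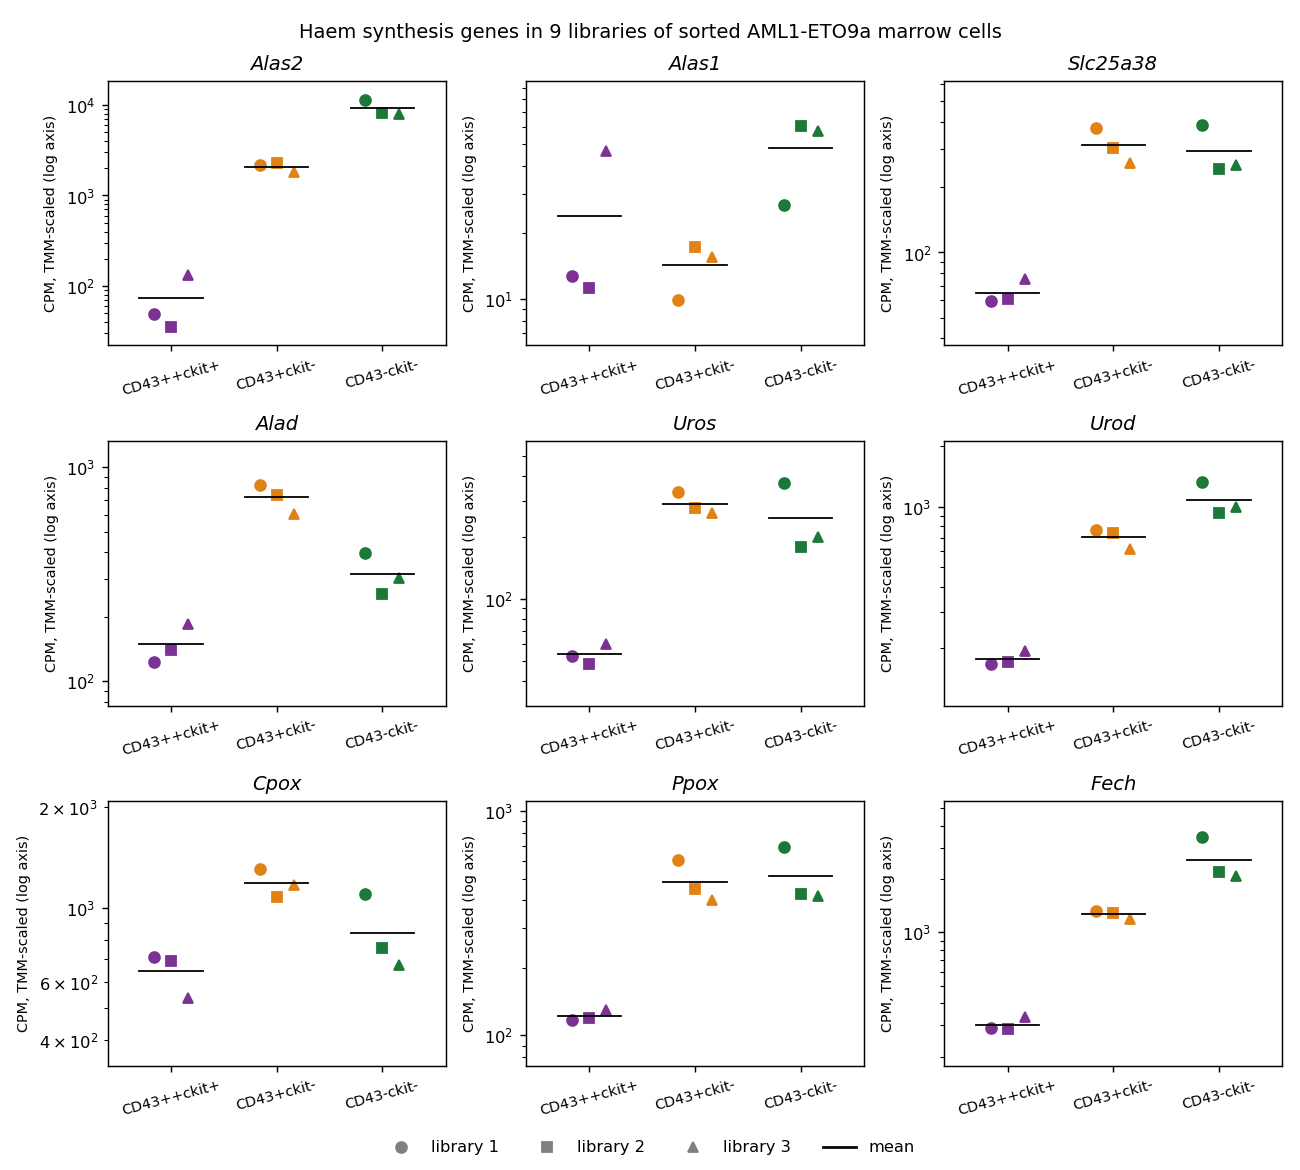
Level of each of the 9 genes in each library, in TMM-scaled CPM on a log axis that differs between panels. Each point is a library of CD43++ckit+, CD43+ckit- or CD43-ckit- cells, its shape gives the library number, and the bar is the mean of 3. All CD43++ckit+ points lie below the CD43+ckit- points for each gene except Alas1.

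Promoter windows of 8 members were found in RefSeq (GRCm38, 11 windows, since some genes have more than 1 start). Fech had no entry. The 250 bases before each start were searched on both strands for the GATA word bound by GATA1 and GATA2, spelled AGATA with an A or a G after it, or TGATA with an A or a G after it. It was found in 3 of the 11 windows, of Alas2, Cpox and Uros, and in 26.5% of all 32851 windows, so the members' share was close to that of promoters at large. The 3 stretches are shown because they hold the GATA words in Alas2 and Cpox, which had the widest and the narrowest gap among the 8 members called against CD43+ckit- cells, and in Uros. GATA words are in capitals, and none of the stretches overlaps an annotated exon. Each is read 5′ to 3′ on the strand of its gene, from position -150 to -51 for Alas2 (chrX:150547267-150547366, plus strand) and Cpox (chr16:58670058-58670157, plus strand), and from -250 before a downstream start for Uros (chr7:133702652-133702750, minus strand).
Alas2: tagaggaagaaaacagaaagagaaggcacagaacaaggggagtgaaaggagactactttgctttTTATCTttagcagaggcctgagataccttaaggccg
Cpox: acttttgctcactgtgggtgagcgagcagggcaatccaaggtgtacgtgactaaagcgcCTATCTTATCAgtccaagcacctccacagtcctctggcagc
Uros: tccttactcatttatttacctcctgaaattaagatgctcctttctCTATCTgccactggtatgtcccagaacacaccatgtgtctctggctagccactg
The Alas2 word starts at -86, the Cpox words at -91 and -86, where they share 1 base, and the Uros word at -205, with another at -68 outside the stretch. A CACCC-box (CCNCNCCC, both strands), a word common in erythroid promoters, was present in 7 of the 11 windows, from 5 of the 8 genes, against 45.9% of all windows. The Alad windows overlap and share matches, so the windows are not independent. A match of letters does not show binding.

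The first enzymes of the pathway came apart from each other. Alas2 had 49.3, 35.4 and 134.0 CPM in the CD43++ckit+ libraries, against 2151, 2290 and 1804 CPM in the CD43+ckit- libraries and 11445, 8033 and 7886 CPM in the CD43-ckit- libraries. The 3 populations did not overlap, and library 3 of CD43++ckit+ was the highest of its population. Alas2 was lower in CD43++ckit+ cells than in CD43+ckit- cells (log2 fold change -4.84 ± 0.51 SE, adjusted p = 0.000387) and than in CD43-ckit- cells (-6.97 ± 0.56 SE, adjusted p = 1.36e-05), and lower in CD43+ckit- cells than in CD43-ckit- cells (-2.13 ± 0.45 SE, adjusted p = 0.00427). Without library 3 of CD43++ckit+ the first 2 differences were -5.62 and -7.74. The same library was also the high one of its population for Slc4a1, the red cell anion exchanger, at 811.7 CPM against 230.2 and 178.0 CPM in libraries 1 and 2.

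Part of the Alas2 count is uncertain. In GENCODE vM21, 15.5% of its exon bases lie over genes on the other strand (Apex2 and Mir3620), and the strand setting of the counting is not given in the sources used here. Apex2, a DNA repair endonuclease gene, was itself at 8.33 to 11.2 CPM in CD43++ckit+ cells, 16.0 to 19.1 CPM in CD43+ckit- cells and 56.1 to 64.4 CPM in CD43-ckit- cells. These levels are below those of Alas2 in each library.

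Alas1 behaved unlike the other members. It had 12.8, 11.2 and 46.9 CPM in CD43++ckit+ cells, 9.89, 17.2 and 15.5 CPM in CD43+ckit- cells and 26.6, 60.5 and 57.3 CPM in CD43-ckit- cells. Library 3 of CD43++ckit+ was high within its population, library 1 of CD43+ckit- and of CD43-ckit- was low, and CD43++ckit+ overlapped with both others. Alas1 was not called for CD43++ckit+ versus CD43+ckit- (0.74 ± 0.56 SE, adjusted p = 0.342), where the value was -0.24 without library 3 of CD43++ckit+. Against CD43-ckit- the difference of CD43++ckit+ was -1.03 ± 0.57 SE (adjusted p = 0.133), and it was called without that library (-1.99, adjusted p = 0.0013). Alas1 was lower in CD43+ckit- cells than in CD43-ckit- cells (-1.76 ± 0.58 SE, adjusted p = 0.0319). That call did not stand with library totals (-1.16, adjusted p = 0.134), without a low-count filter (adjusted p = 0.0759), or when 1 of the CD43+ckit- libraries, or CD43-ckit- library 2 or 3, was left out (0.0645 to 0.116 in adjusted p). Each CD43+ckit- library was below the CD43-ckit- library of the same number, and the call stood with library number as a block over all 9 libraries (-1.71, adjusted p = 0.0130) and over these 6 only (-1.77, adjusted p = 3.07e-21, a fit added after seeing the data). The fit of 6 has few libraries left to estimate the spread once group and number are fitted. Its small p is therefore not stronger evidence than the other values. Correlations between the libraries did not pair libraries 2 and 3 of these populations by number.

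The libraries in which Alas1 stood apart were those in which neutrophil genes did. The 11 neutrophil markers, among them the calprotectin genes S100a8 and S100a9 and the granule genes Ngp, Ltf and Camp, all had a row and none was at 0. Their summed level was 358.1, 96.6 and 6117 CPM in CD43++ckit+ cells, 494.8, 3770 and 3012 CPM in CD43+ckit- cells and 3888, 16782 and 17424 CPM in CD43-ckit- cells. Within each population the library highest or lowest for Alas1 stood apart in the same direction for these markers. The sums of macrophage and of B-lineage markers did so in CD43++ckit+ and CD43+ckit- cells, but library 1 of CD43-ckit- was high for both. The sum of 4 T cell markers without Lck did so in each population, so the pattern was not particular to neutrophil genes. By edgeR's quasi-likelihood test 0 of the 11 neutrophil markers were called in any of the 3 comparisons (smallest adjusted p = 0.0688). For CD43++ckit+ versus CD43-ckit- 1 had an unadjusted p under 0.05 and DESeq2 called 4, and in the other comparisons both counts were 0. The part of neutrophil RNA in the Alas1 values was not tested. Also, 7.53% of the Alas1 exon bases lie over a predicted gene on the other strand.

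**Figure D2:**
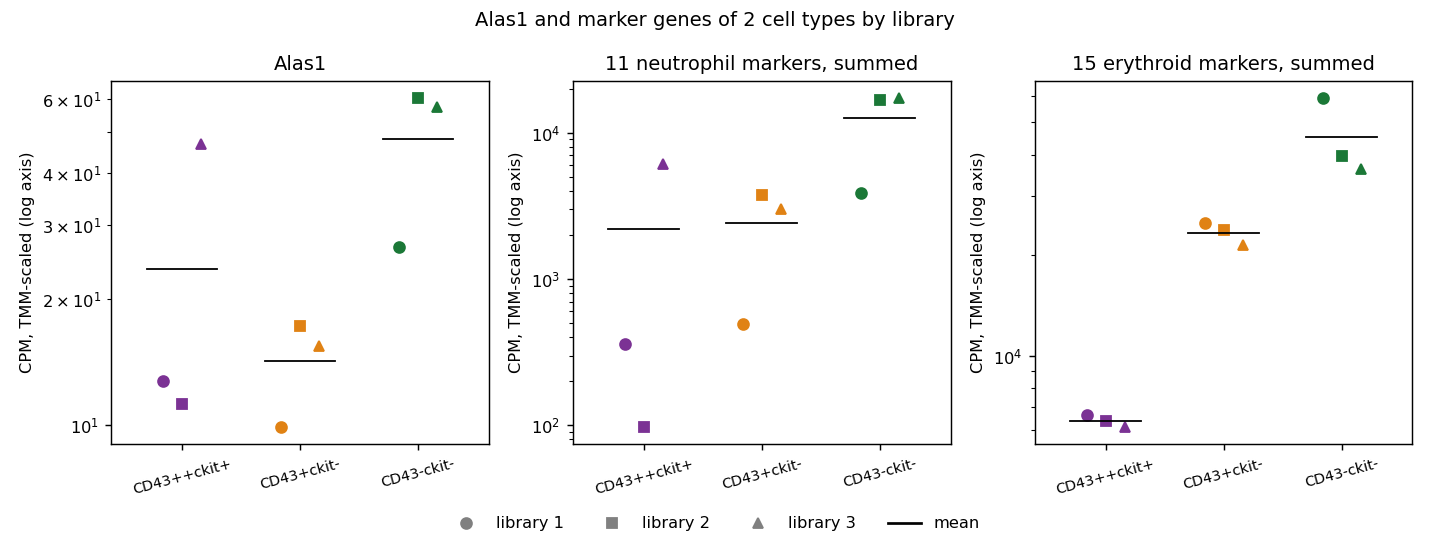
Alas1 (left), the sum of 11 neutrophil markers (middle) and the sum of 15 erythroid markers (right) in each library, in TMM-scaled CPM on log axes; bars are means of 3 libraries. Library 3 of CD43++ckit+ is the high one of its population for Alas1 (46.9 CPM) and for the neutrophil sum (6117 CPM), and library 1 of CD43-ckit- is the low one for both.

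Slc25a38, which carries glycine into the mitochondrion for the first reaction, had 59.4, 61.1 and 75.2 CPM in CD43++ckit+ cells, 376.0, 305.3 and 260.3 CPM in CD43+ckit- cells and 388.3, 242.1 and 254.1 CPM in CD43-ckit- cells. The CD43++ckit+ libraries lay below all others, and the CD43+ckit- and CD43-ckit- libraries overlapped. Slc25a38 was lower in CD43++ckit+ cells than in CD43+ckit- cells (-2.27 ± 0.22 SE, adjusted p = 0.000326) and than in CD43-ckit- cells (-2.18 ± 0.22 SE, adjusted p = 5.27e-05). In the CD43+ckit- versus CD43-ckit- comparison it was not called (0.09 ± 0.21 SE, adjusted p = 0.733), with a value of -0.10 under size factors and a call as higher in CD43+ckit- cells with library totals (0.76, adjusted p = 0.00392). The genes with the most similar profile over the 9 libraries were Rhd (an antigen gene of the Rh blood group), Flot2, Ptdss2 and Ufsp1, at a root mean square distance of 0.057, 0.0975, 0.111 and 0.120 in centred log2 CPM. The median distance over 8301 genes was 1.23, and among the members Ppox (0.134) and Uros (0.139) were nearest.

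In the cytosolic steps the genes did not share 1 pattern. Alad, whose product joins 2 molecules of aminolaevulinate into porphobilinogen, had 122.6, 138.8 and 184.8 CPM in CD43++ckit+ cells, 827.7, 737.9 and 600.9 CPM in CD43+ckit- cells and 395.3, 254.5 and 302.8 CPM in CD43-ckit- cells. No library overlapped between populations, and CD43+ckit- was highest. Alad was lower in CD43++ckit+ cells than in CD43+ckit- cells (-2.28 ± 0.23 SE, adjusted p = 0.000326) and higher in CD43+ckit- cells than in CD43-ckit- cells (1.19 ± 0.22 SE, adjusted p = 0.00222). It was lower in CD43++ckit+ cells than in CD43-ckit- cells with TMM (-1.09 ± 0.22 SE, adjusted p = 0.00181) but not with library totals (-0.14, adjusted p = 0.524).

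Uros, which closes the linear tetrapyrrole into the uroporphyrinogen ring, had 53.0, 48.3 and 60.1 CPM in CD43++ckit+ cells, 334.4, 277.1 and 262.0 CPM in CD43+ckit- cells and 368.3, 178.3 and 200.2 CPM in CD43-ckit- cells. Library 1 of CD43-ckit- was higher than all CD43+ckit- libraries and libraries 2 and 3 were lower than all of them, so those populations overlapped. Uros was lower in CD43++ckit+ cells than in CD43+ckit- cells (-2.44 ± 0.27 SE, adjusted p = 0.000412) and than in CD43-ckit- cells (-2.21 ± 0.27 SE, adjusted p = 0.000124). For CD43+ckit- versus CD43-ckit- cells, it was not called (0.23 ± 0.26 SE, adjusted p = 0.467), but it was called as higher in CD43+ckit- cells with library totals (0.92, adjusted p = 0.00296) and without library 1 of CD43-ckit- (0.63, adjusted p = 0.00887).

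Urod, which removes the acetate carboxyl groups of uroporphyrinogen, had 165.1, 168.9 and 192.5 CPM in CD43++ckit+ cells, 763.0, 740.1 and 618.2 CPM in CD43+ckit- cells and 1324, 929.4 and 1001 CPM in CD43-ckit- cells. The populations did not overlap and stood in that order. Urod was lower in CD43++ckit+ cells than in CD43+ckit- cells (-2.01 ± 0.17 SE, adjusted p = 0.000292) and than in CD43-ckit- cells (-2.63 ± 0.17 SE, adjusted p = 4.53e-06), and with TMM lower in CD43+ckit- cells than in CD43-ckit- cells (-0.62 ± 0.16 SE, adjusted p = 0.0129), where library totals gave 0.048 (adjusted p = 0.752). Without library 3 of CD43+ckit- that call was also lost (adjusted p = 0.0616). Klc4, Txnrd2, Arhgap23 and Stradb had the profiles nearest to Urod (distances 0.0993, 0.106, 0.111 and 0.112, median of 8301 genes 1.31), and Fech was the nearest member (0.212).

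The last enzymes act in the mitochondrion. Cpox, which oxidises coproporphyrinogen, had 711.2, 693.1 and 537.4 CPM in CD43++ckit+ cells, 1304, 1076 and 1167 CPM in CD43+ckit- cells and 1097, 754.7 and 674.6 CPM in CD43-ckit- cells. CD43++ckit+ was below CD43+ckit- in all libraries, and CD43-ckit- overlapped with both others. Cpox was lower in CD43++ckit+ cells than in CD43+ckit- cells (-0.87 ± 0.20 SE, adjusted p = 0.00871), the smallest gap among the 8 genes called there. Against CD43-ckit- its difference in CD43++ckit+ cells was -0.38 ± 0.20 SE (adjusted p = 0.120) with TMM, -0.62 (adjusted p = 0.0181) with size factors, -0.51 (adjusted p = 0.0404) with a strict low-count filter and 0.56 (adjusted p = 0.00276) with library totals, so its direction depended on the scaling. In the CD43+ckit- versus CD43-ckit- comparison the difference was 0.49 ± 0.20 SE (adjusted p = 0.0678), and it was called with library totals (1.17, adjusted p = 9.53e-05), without a low-count filter (0.60, adjusted p = 0.0365), with library number as a block over all 9 libraries (0.52, adjusted p = 0.0311) and without library 1 of CD43-ckit- (0.74, adjusted p = 0.00596).

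Ppox, which oxidises protoporphyrinogen, had 117.2, 118.9 and 129.4 CPM in CD43++ckit+ cells, 602.6, 450.9 and 400.6 CPM in CD43+ckit- cells and 692.3, 427.2 and 420.4 CPM in CD43-ckit- cells. CD43++ckit+ was below all other libraries, and the CD43+ckit- and CD43-ckit- libraries overlapped. Ppox was lower in CD43++ckit+ cells than in CD43+ckit- cells (-1.99 ± 0.23 SE, adjusted p = 0.000463) and than in CD43-ckit- cells (-2.07 ± 0.23 SE, adjusted p = 8.14e-05). For CD43+ckit- versus CD43-ckit- cells, the difference was -0.08 ± 0.22 SE (adjusted p = 0.765), against 0.59 (adjusted p = 0.0107) with library totals. Of its exon bases, 17.5% lie over B4galt3 on the other strand, a galactosyltransferase gene that had 48.3 to 50.5 CPM in CD43++ckit+ cells, 70.0 to 86.4 CPM in CD43+ckit- cells and 201.0 to 267.1 CPM in CD43-ckit- cells.

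Fech, which inserts iron into protoporphyrin, had 288.3, 284.2 and 332.7 CPM in CD43++ckit+ cells, 1316, 1282 and 1195 CPM in CD43+ckit- cells and 3426, 2180 and 2069 CPM in CD43-ckit- cells. The populations did not overlap, in the same order as for Alas2 and Urod. Fech was lower in CD43++ckit+ cells than in CD43+ckit- cells (-2.07 ± 0.20 SE, adjusted p = 0.000326) and than in CD43-ckit- cells (-3.08 ± 0.21 SE, adjusted p = 5.48e-06). It was lower in CD43+ckit- cells than in CD43-ckit- cells with TMM (-1.02 ± 0.20 SE, adjusted p = 0.00299), and with library totals the difference was -0.33 (adjusted p = 0.0646).

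Counted over the members, 8 of 9 were called lower in CD43++ckit+ cells than in CD43+ckit- cells and 0 higher, in a comparison where 20.1% of all tested genes were called lower, 19.7% higher and 39.8% in either direction. The same 8 genes lay lower in CD43++ckit+ cells without overlap of the libraries, as did 28.5% of all tested genes; 27.0% lay higher in that way and 55.5% in either direction. The calls of these 8 held under each of the other scalings, filters and tools and without any 1 library. For CD43++ckit+ versus CD43-ckit-, 7 were called lower and 0 higher with TMM, against 27.7% lower, 39.7% higher and 67.4% in either direction over all genes. With library totals Alad lost its call there and Cpox was called higher, and DESeq2's Wald test called all 9 lower, where it called 63.3% of all genes in either direction. The 7 genes lay lower without overlap, against 30.5% of all genes, with 42.7% higher and 73.2% in either direction. For CD43+ckit- versus CD43-ckit-, 4 were called lower and 1 higher, against 20.9% lower, 31.0% higher and 51.9% in either direction over all genes. The same 5 did not overlap, where 28.2% of all genes lay lower, 36.1% higher and 64.3% either way. A count of 5 in 9 is near the share over all genes, and with library totals 5 were called higher and 1 lower. The median log2 fold change of the members was -2.07, -2.18 and -0.08 in the 3 comparisons, beside 0.01, 0.19 and 0.13 over all tested genes and -1.81, -2.08 and -0.26 over the 15 erythroid markers. In the joint test of the 3 populations all 9 were called, as were 74.8% of all genes, with Alas1 nearest the threshold (adjusted p = 0.0495).

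**Figure D3:**
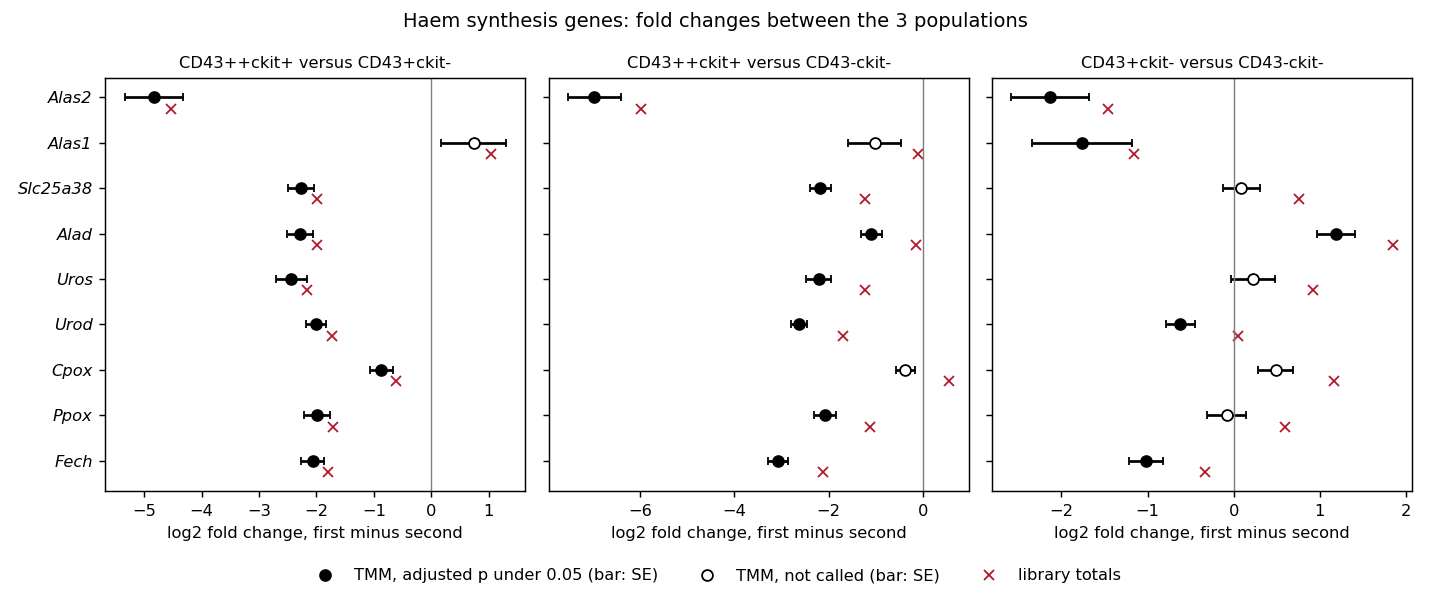
Log2 fold change of each member in the 3 comparisons, first-named population minus second. Circles are TMM-scaled values with their SE as bars, filled where the adjusted p is under 0.05, and crosses are values with library totals. In the left panel all genes except Alas1 lie below 0 under both scalings, and in the right panel the crosses of Urod (0.048) and Ppox (0.59) lie on the other side of 0 from their circles.

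The summed level of the 9 genes was 1579, 1560 and 1693 CPM in CD43++ckit+ cells, 7686, 7176 and 6324 CPM in CD43+ckit- cells and 19161, 13059 and 12865 CPM in CD43-ckit- cells. The populations did not overlap. As a share of all counts of a library, which amounts to scaling by library totals, the genes took 0.199% to 0.239% in CD43++ckit+ cells, 0.720% to 0.810% in CD43+ckit- cells and 0.959% to 1.13% in CD43-ckit- cells. Most of the step between CD43+ckit- and CD43-ckit- lay in Alas2: without it the sums with TMM were 1529, 1525 and 1559 CPM in CD43++ckit+ cells, 5534, 4886 and 4520 CPM in CD43+ckit- cells and 7716, 5027 and 4980 CPM in CD43-ckit- cells, where the CD43+ckit- and CD43-ckit- libraries overlapped. Alas2 alone took 0.205% to 0.249% of all counts in CD43+ckit- cells and 0.590% to 0.674% in CD43-ckit- cells. The share of all counts left without Alas2 was higher in each CD43+ckit- library than in each CD43-ckit- library. How these 2 populations compare without Alas2 thus depended on the scaling.

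Levels of different genes can be compared per kilobase of exon, using GENCODE vM21 lengths, which may differ from those of the counting. Each length is the union of all annotated exons of a gene, up to 13838 bases for Fech. It can exceed the length of the transcript present, so ranks between genes depend on it. Per kilobase, Cpox had the highest mean in CD43++ckit+ cells (97.2 ± 14.3 CPM per kb, SD, n = 3), ahead of Alad (79.5 ± 17.3) and Urod (67.7 ± 5.74), whose spreads overlapped. In library 3 of CD43++ckit+ Alad came first, at 98.8 CPM per kb against 80.7 for Cpox. Alas2 had 20.5, 14.7 and 55.8 CPM per kb in CD43++ckit+ cells, ahead of Ppox, Slc25a38 and Fech in library 3 and behind them in libraries 1 and 2 (mean 30.3 ± 22.2, or 17.6 without library 3). Alas2 was first in CD43+ckit- cells (866.4 ± 104.1) and CD43-ckit- cells (3796 ± 838). Alas1 came last in each population. Alas2 made up 7.92% ± 4.88 of the summed per-length level of the 9 genes in CD43++ckit+ cells, 41.3% ± 2.33 in CD43+ckit- cells and 76.1% ± 0.67 in CD43-ckit- cells (SD, n = 3). The share of Cpox was 27.0% ± 6.55, 8.51% ± 1.08 and 2.52% ± 0.16 in the same populations, and that of Alad 21.6% ± 2.35, 18.3% ± 0.92 and 3.41% ± 0.31. The make-up of haem transcripts was thus spread over Cpox, Alad and Urod in CD43++ckit+ cells and mostly Alas2 in CD43-ckit- cells.

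**Figure D4:**
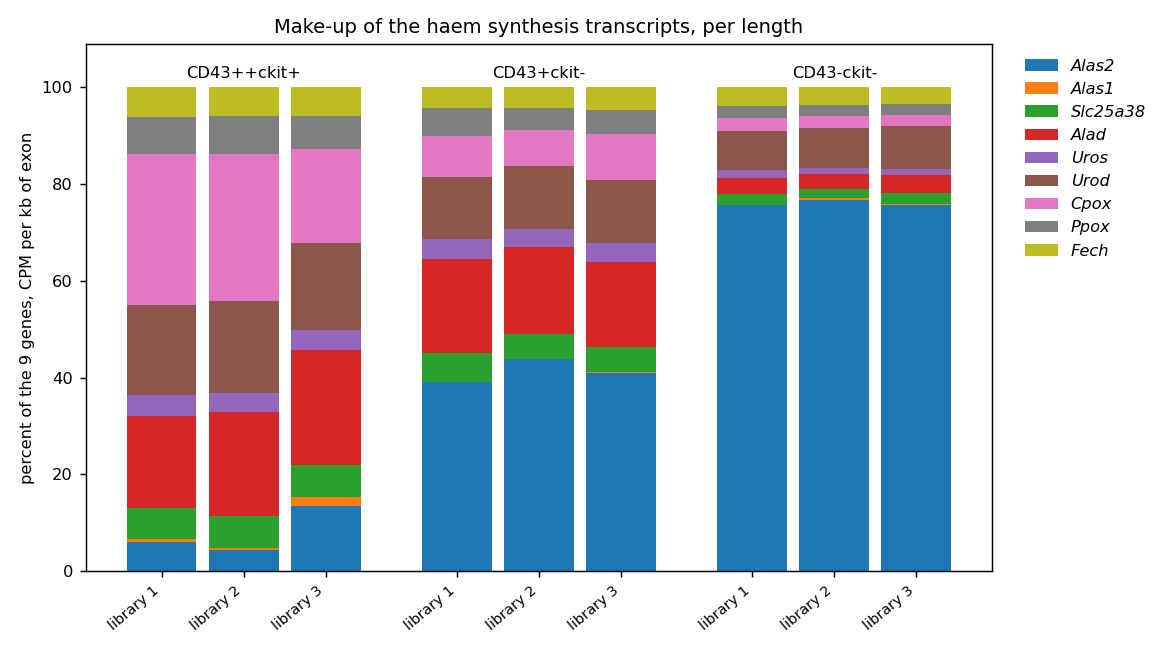
Share of each gene in the summed per-length level (CPM per kb of exon) of the 9 genes, as stacked percentages for each library. Alas2 takes 4.30% to 13.5% of the bar in CD43++ckit+ cells, 39.1% to 43.7% in CD43+ckit- cells and 75.6% to 76.8% in CD43-ckit- cells.

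Ratios of counts within a library do not depend on the scaling. Alas2 had 3.86, 3.14 and 2.86 counts per Alas1 count in CD43++ckit+ cells, 217.3, 132.7 and 116.4 in CD43+ckit- cells and 429.1, 132.8 and 137.4 in CD43-ckit- cells. The mean log2 ratio of CD43++ckit+ cells differed by -5.52 against CD43+ckit- and by -5.93 against CD43-ckit-, with no overlap (two-sided exact permutation p = 0.1 each, the smallest that 3 against 3 allows). In the CD43+ckit- versus CD43-ckit- comparison the ratios overlapped and differed by -0.41 (exact permutation p = 0.5), or by 0.15 without library 1 of CD43-ckit-. Over the 15 ratio comparisons made, an exact p of 0.1 became 0.115 after Benjamini-Hochberg adjustment, so none could pass 0.05 in this design.

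Each ratio among the other steps set CD43-ckit- apart from both other populations. Each except Fech over Alad also set CD43++ckit+ apart from CD43+ckit-. Fech had 2.35, 2.05 and 1.8 counts per Alad count in CD43++ckit+ cells, 1.59, 1.74 and 1.99 in CD43+ckit- cells and 8.66, 8.57 and 6.83 in CD43-ckit- cells. The CD43++ckit+ and CD43+ckit- libraries overlapped (log2 difference 0.22, exact permutation p = 0.2), while both lay below CD43-ckit- (-1.96 and -2.18, exact permutation p = 0.1 each). Fech over Cpox differed between all 3 populations without overlap, at 0.405, 0.410 and 0.619 in CD43++ckit+ cells, 1.01, 1.19 and 1.02 in CD43+ckit- cells and 3.12, 2.89 and 3.07 in CD43-ckit- cells. Alas2 over Alad did so too, at 0.402, 0.255 and 0.725 in CD43++ckit+ cells, 2.60, 3.10 and 3.0 in CD43+ckit- cells and 28.9, 31.6 and 26.0 in CD43-ckit- cells. Alas2 over Fech differed by -3.0 for CD43++ckit+ versus CD43+ckit-, -4.14 for CD43++ckit+ versus CD43-ckit- and -1.14 for CD43+ckit- versus CD43-ckit- on the log2 scale (exact permutation p = 0.1 each).

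**Figure D5:**
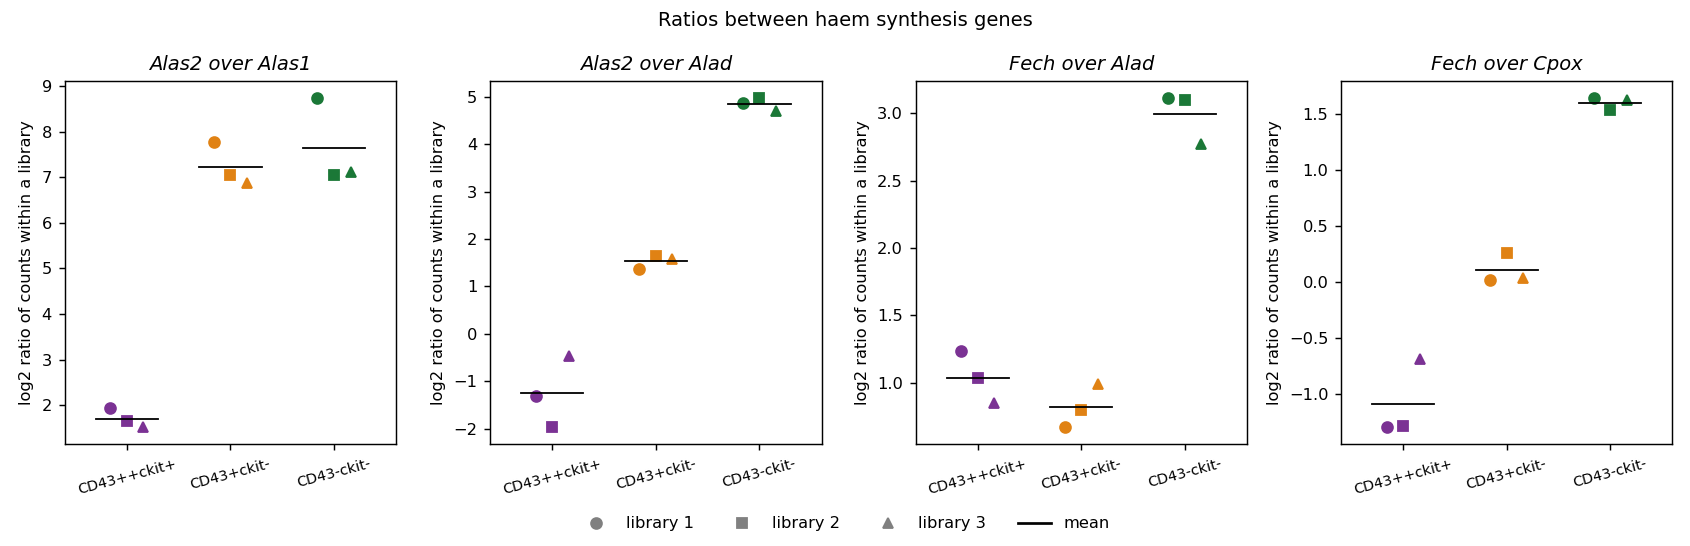
Log2 ratio of the counts of pairs of haem synthesis genes within each library, which no scaling can change; bars are means of 3 libraries. For Alas2 over Alas1 the CD43++ckit+ libraries lie below the overlapping CD43+ckit- and CD43-ckit- libraries, and for Fech over Alad the CD43-ckit- libraries lie above the overlapping others.

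The genes with the profile nearest to Alas2 were Hbq1b, a theta globin gene (distance 0.187), Mmel1, an endopeptidase gene (0.276), Dmtn, which encodes the red cell membrane skeleton protein dematin (0.305), Dusp8 (0.321), Ypel4 (0.341) and Rab3il1 (0.342). The median distance to Alas2 over the 8301 genes searched was 3.18. The nearest member, Fech, was at a distance of 1.8 and ranked 257 by it. Dmtn averaged 14.5 CPM in CD43++ckit+ cells, 394.4 CPM in CD43+ckit- cells and 1373 CPM in CD43-ckit- cells.

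Genes that carry iron, haem and its precursors or that control haem synthesis were counted from a list of 15, of which 14 were tested. Against CD43+ckit-, 10 were lower in CD43++ckit+ cells and 1 higher, beside 20.1% lower and 19.7% higher of all tested genes. Against CD43-ckit- 10 were lower and 2 higher, beside 27.7% lower and 39.7% higher of all tested genes. Slc25a37, which encodes mitoferrin, the mitochondrial iron importer of erythroid cells, had a log2 fold change of -3.22 in CD43++ckit+ cells against CD43+ckit- (304.2 ± 29.5 against 2827 ± 394 CPM, SD, n = 3; adjusted p = 0.000326) and of -3.53 against CD43-ckit-. Fam210b, a mitochondrial protein that aids erythroid haem synthesis, was lower against both (-2.31 and -4.04), as was Eif2ak1, the kinase that slows translation when haem is short (-1.87 and -3.57). Abcb6, a porphyrin transporter gene (-1.45 and -1.07), Slc48a1, a haem transporter gene (-1.28 and -2.46), and Bach1, a repressor that haem inactivates (-0.88 and -2.85), were also lower against both. Pgrmc1, which encodes a haem-binding membrane protein, was higher in CD43++ckit+ cells in both comparisons (0.52 and 0.46). With library totals Clpx and Snx3, called lower against CD43-ckit-, turned sign.

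Of the same list, 5 genes were higher and 4 lower in CD43+ckit- cells than in CD43-ckit- cells, beside 31.0% and 20.9% of all tested genes. The higher ones included Tmem14c, which helps protoporphyrinogen into the mitochondrion (1.20, adjusted p = 0.000269), Hebp1 (0.83), Slc25a28 (0.52) and Abcb6 (0.38). The lower ones were Bach1 (-1.97, adjusted p = 0.000106), Fam210b (-1.73), Eif2ak1 (-1.69) and Slc48a1 (-1.18). Tmem14c averaged 323.3 ± 15.7, 783.7 ± 26.6 and 340.9 ± 55.4 CPM in CD43++ckit+, CD43+ckit- and CD43-ckit- cells (SD, n = 3), highest in CD43+ckit- cells as Alad was.

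Iron-sulfur cluster genes, which the pathway needs because the Fech product carries such a cluster, went both ways. Of 16 listed, 14 were tested: 7 were lower and 4 higher in CD43++ckit+ cells than in CD43+ckit- cells, and 5 were lower and 5 higher than in CD43-ckit- cells. Of all tested genes, 20.1% were lower and 19.7% higher in the first comparison, and 27.7% and 39.7% in the second. The 10 called in the second were near the 67.4% of all genes called there in either direction. Glrx5, a cluster transfer glutaredoxin (-1.59 and -2.97), Isca1, a late assembly factor (-1.58 and -3.70), and Iscu, the assembly scaffold (-1.51 and -2.47), were lower against both. Bola3 was lower against CD43+ckit- (-0.93) and, with TMM, against CD43-ckit- (-0.41), where library totals gave 0.52. Hscb was lower against both (-0.97 and -1.08), and Isca2 (-0.49) and Iba57 (-0.70) against CD43+ckit-. The genes higher in CD43++ckit+ cells included Hspa9, the mitochondrial chaperone (1.81 and 1.78), Fdx1, a ferredoxin (1.85 and 2.09), Fdxr, its reductase (0.85 and 1.52), and Nfu1 (0.57 and 1.28), each against both. In the CD43+ckit- versus CD43-ckit- comparison 3 were lower in CD43+ckit- cells, namely Isca1 (-2.12), Glrx5 (-1.38) and Iscu (-0.97), and 5 higher, among them Isca2 (0.76), Nfu1 (0.71), Nfs1 (0.56) and Bola3 (0.52). There 20.9% of all tested genes were lower and 31.0% higher.

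Genes that supply glycine and succinyl-CoA did not follow the enzymes. Of 12 listed, 11 were tested, and 2 were lower and 3 higher in CD43++ckit+ cells than in CD43+ckit- cells, beside 20.1% and 19.7% of all tested genes. Slc6a9, a plasma membrane glycine transporter gene, was lower than in CD43+ckit- cells (-2.88; 72.8 ± 15.2 against 537.3 ± 73.7 CPM, SD, n = 3) and than in CD43-ckit- cells (-3.70), and Dlst was lower than in CD43+ckit- cells (-0.78). Shmt1, which interconverts serine and glycine (2.02), Gcsh of the glycine cleavage system (1.87) and Suclg2, a subunit of succinyl-CoA synthetase (1.44), were higher. Against CD43-ckit- 4 were lower and 6 higher in CD43++ckit+ cells, beside 27.7% and 39.7% of all tested genes. The lower ones were Slc6a9, Amt (-1.37), Dlst (-0.70) and Ogdh (-0.51), and the higher ones included Shmt1 (1.52) and the succinyl-CoA synthetase subunits Sucla2 (1.30) and Suclg1 (1.13). Of these, Ogdh and Dlst turned sign with library totals. Set against CD43-ckit- cells, CD43+ckit- cells had Slc6a9 lower (-0.82), and Sucla2 (0.75) and Suclg1 (0.69) higher.

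Of 5 genes of iron uptake and sensing, Tfrc, the transferrin receptor gene, was lower in CD43++ckit+ cells than in CD43+ckit- cells (-1.94) and than in CD43-ckit- cells (-2.39). Aco1, which encodes an iron regulatory protein, was lower against CD43+ckit- (-1.24) and, with TMM, against CD43-ckit- (-0.60), where library totals gave 0.34. Steap3, an endosomal ferrireductase gene (2.06), Slc11a2, the endosomal iron transporter gene (0.75), and Ireb2 (0.67, adjusted p = 0.0492) were higher in CD43++ckit+ cells than in CD43-ckit- cells. In CD43+ckit- against CD43-ckit-, Steap3 (1.8), Slc11a2 (0.87) and Aco1 (0.64) were higher.

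Of 4 genes of haem breakdown, Hmox1, which opens the haem ring, was lower in CD43++ckit+ cells (-5.52, adjusted p = 0.000845) and in CD43+ckit- cells (-5.40, adjusted p = 0.00184) than in CD43-ckit- cells. It averaged 5.46 ± 6.19, 6.00 ± 3.30 and 252.8 ± 52.8 CPM in CD43++ckit+, CD43+ckit- and CD43-ckit- cells (SD, n = 3). Blvrb, a biliverdin reductase gene, was lower in CD43++ckit+ cells than in CD43+ckit- cells (-1.82) and than in CD43-ckit- cells (-2.27). Blvra was higher in CD43++ckit+ cells (0.44) and in CD43+ckit- cells (0.63), each against CD43-ckit- cells. The summed level of 11 macrophage markers, all with a row and none at 0, was 14.2 to 100.2 CPM in CD43++ckit+ cells, 14.9 to 38.3 CPM in CD43+ckit- cells and 134.2 to 182.3 CPM in CD43-ckit- cells; it moved with Hmox1, and its part in that result was not tested.

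Transcription factor genes of the erythroid lineage were lower in CD43++ckit+ cells for 6 of 8 against CD43+ckit- and for 7 of 8 against CD43-ckit-, beside 20.1% and 27.7% of all tested genes. Gata1, which drives erythroid genes, was lower than in CD43+ckit- cells (-1.10; 283.8 ± 16.3 against 609.6 ± 64.9 CPM, SD, n = 3) and than in CD43-ckit- cells (-1.43). Nfe2 (-1.43 and -3.29), Lmo2 (-1.46 and -2.18), Tal1 (-1.0 and -2.29) and Zfpm1 (-1.52 and -1.90) were lower against both. Gata2, a GATA factor of progenitors, was not called against CD43+ckit- (-0.33, adjusted p = 0.332) and was lower against CD43-ckit- (-1.97), and Cbfa2t3, a relative of ETO, was not called against the first (-0.27, adjusted p = 0.373) and lower against the second (-2.12). Ldb1 was lower in CD43++ckit+ cells than in CD43+ckit- cells (-0.43) and higher than in CD43-ckit- cells (0.51). In the CD43+ckit- versus CD43-ckit- comparison 5 were lower in CD43+ckit- cells, namely Nfe2 (-1.87), Cbfa2t3 (-1.85), Gata2 (-1.64), Tal1 (-1.30) and Lmo2 (-0.72), and Ldb1 was higher (0.94), while Gata1 was not called (-0.32, adjusted p = 0.120). There 20.9% of all tested genes were lower and 31.0% higher.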

How the data were processed

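RNA-seq read counts per gene symbol were available for 9 libraries (TruSeq RNA kit, 1 ug of total RNA, per the labels' protocols). The authors deposited raw counts as whole numbers in a table whose title names HTSeq. The submitters' processing notes list CASAVA 1.8, RSEM, edgeR, HTSeq and TopHat2 2.0.4 with no role for any. Their build is a human one although gene symbols are of mouse form; which build, annotation and strand setting the counts used is not given in the sources used here. Coordinates are those of GRCm38 (GENCODE vM21, RefSeq). Reads of overlapping genes cannot be separated. Of the rows, 6162 were at 0 in all libraries and 27 carried dates in place of symbols.

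The test was run in edgeR 4.0.16 (R 4.3.3): filterByExpr (minimum count 10, minimum total 15), TMM, and 1 robust quasi-likelihood fit of 3 group means over all 9 libraries, with Benjamini-Hochberg adjustment over 12573 genes and a threshold of 0.05. Dividing the size of each log2 fold change by the root of its F statistic gave its SE. The steps were tested on simulated data. Ratios were compared as log2 of counts plus 0.5. Libraries of a population differed beyond sampling noise (16.0 to 124.8 in chi-square per degree of freedom), hence each counted as 1 replicate. The smallest total was 17966197 counts.

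Members and lists were chosen with earlier results of these data known. Besides the members, the text names up to 4 genes of each list with the smallest adjusted p in a comparison, provided their average log2 CPM was 1 or more, and the genes nearest in profile to Alas2, Slc25a38 and Urod. Other genes, such as those that make up counts of 5 or fewer, were named after their values were seen, and some genes of the lists are not reported here. Flvcr1 and Epb42, though listed, were not analysed here for want of a row. B-lineage, mast cell and basophil, megakaryocyte and T cell markers were also summed. Alternatives were relative log expression (RLE) size factors computed in edgeR, the Wald test of DESeq2 1.42.0, library totals, and no filter or a strict filter (CPM above 1 in at least 6 libraries). Others left out each library in turn or used a replicate block.

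After subtracting each population's mean, libraries 1, 2 and 3 of CD43+ckit- correlated with their namesakes of CD43-ckit- at 0.525, 0.366 and 0.303. Library 2 of CD43+ckit- correlated with library 3 of CD43-ckit- at 0.343, and library 3 of CD43+ckit- with library 2 of CD43-ckit- at 0.3495. The values thus set library 1 apart and do not pair libraries 2 and 3 by number. The tests kept no block, and fits with one are alternatives. With CD43++ckit+ the values for namesakes were 0.447, -0.617 and 0.382 for CD43+ckit- and 0.262, -0.318 and 0.252 for CD43-ckit-, so that population was not taken as paired.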

Additional observations from a re-analysis of the deposited data

How the results depend on the processing

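The calls of members kept their direction and side of the threshold in 128 of 128 alternative values for CD43++ckit+ versus CD43+ckit-, in 111 of 112 for CD43++ckit+ versus CD43-ckit- (Alad lost its call with library totals) and in 75 of 85 for CD43+ckit- versus CD43-ckit-. In the last, the Alas1 call was lost in 7, the Fech and Urod calls in 1 each, and Urod turned sign in 1. With library totals Cpox was 0.56 for CD43++ckit+ versus CD43-ckit-, and Urod was 0.048 and Ppox 0.59 for CD43+ckit- versus CD43-ckit-. Ppox in that comparison was 0.022 without a low-count filter, and Slc25a38 was -0.10 with size factors, -0.021 with the strict filter and -0.079 with DESeq2's Wald test. Other values that turned sign came with a library left out. Over the libraries left out in turn, Alas1 for CD43++ckit+ versus CD43+ckit- ranged from -0.24 (without library 3 of CD43++ckit+) to 1.07. For CD43+ckit- versus CD43-ckit-, Ppox ranged from -0.25 to 0.21 (without library 1 of CD43-ckit-; 0.053 without library 3 of CD43+ckit-), and Slc25a38 from -0.043 (without library 1 of CD43+ckit-; -0.029 without library 2 of CD43-ckit-) to 0.35. In that comparison the number of members called ranged from 3 (without library 3 of CD43+ckit-) to 7 (without library 1 of CD43-ckit-), where 39.5% and 48.9% of all genes were called, and the log2 ratio of Alas2 over Alas1 from -0.70 to 0.15. The cause was not tested.

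Without library 3 of CD43++ckit+ and library 1 of each other population, a fit chosen after seeing the data, 8557 genes were called for CD43++ckit+ versus CD43+ckit- against 5005 with all libraries. Alas1 was then -0.45 there (adjusted p = 0.00629) and Ppox 0.013 for CD43+ckit- versus CD43-ckit-.

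With same-numbered libraries as a replicate block over all 9, 4804, 8836 and 6576 genes were called in the 3 comparisons, with 8, 8 and 6 members. Cpox gained a call for CD43+ckit- versus CD43-ckit- (0.52, adjusted p = 0.0311), and Alas1 one for CD43++ckit+ versus CD43-ckit- (-1.16, adjusted p = 0.0395). With the block in a fit of the CD43+ckit- and CD43-ckit- libraries only, chosen after seeing the data, 8098 genes were called in place of 6523 and 5 members, Cpox not among them (adjusted p = 0.0539). The block changed no other call of a member. For the ratio of Alas2 over Alas1 the paired exact sign-flip p was 0.25 in each comparison, the smallest that 3 pairs allow.

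The lowest member count was 294, so counting error is small beside the spread between libraries, and 3 libraries per population limit the precision.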

Other observations

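Markers of other cell types differed between the populations. The sum of 7 mast cell and basophil markers was 546.4 to 1075 CPM in CD43++ckit+ cells, 139.7 to 206.0 CPM in CD43+ckit- cells and 128.8 to 264.3 CPM in CD43-ckit- cells, so CD43++ckit+ lay above both others without overlap. Hdc (mean 545.7 CPM) and Ms4a2 (mean 294.5 CPM) made up most of the sum in CD43++ckit+ cells. Of the 6 mast cell and basophil genes tested, 5 were called higher in CD43++ckit+ cells than in CD43+ckit- cells and 3 higher than in CD43-ckit- cells, beside 19.7% and 39.7% of all tested genes. Cpa3 and Mcpt8, not called in the second comparison, averaged less in CD43++ckit+ cells (1.55 and 1.28 CPM) than in CD43-ckit- cells (2.18 and 9.81 CPM). All 9 B-lineage markers were called lower in CD43++ckit+ cells than in CD43-ckit- cells, as were 27.7% of all tested genes. By edgeR 0 of these markers were called against CD43+ckit- (smallest adjusted p = 0.0649), where 2 had an unadjusted p under 0.05 and DESeq2 called 2. Of the 5 megakaryocyte markers tested, 3 were called lower in CD43++ckit+ cells than in CD43+ckit- cells and 1 higher, beside 20.1% and 19.7% of all tested genes. The sum of 7 megakaryocyte markers was 37.6 to 41.9 CPM in CD43++ckit+ cells, 55.9 to 57.9 CPM in CD43+ckit- cells and 65.9 to 79.2 CPM in CD43-ckit- cells. Of 5 T cell markers, Lck averaged 4.66 ± 1.14, 26.4 ± 2.57 and 10.4 ± 0.74 CPM in CD43++ckit+, CD43+ckit- and CD43-ckit- cells (SD, n = 3), and the other 4 summed to 0.055 to 1.83, 1.41 to 3.32 and 6.13 to 8.90 CPM.

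Among the erythroid markers, Car1, a carbonic anhydrase gene, went against the haem genes. It was higher in CD43++ckit+ cells than in CD43+ckit- cells (1.03, adjusted p = 0.0188) and than in CD43-ckit- cells (2.55, adjusted p = 0.000107), and averaged 1422 ± 425, 696.4 ± 52.2 and 243.7 ± 78.0 CPM in CD43++ckit+, CD43+ckit- and CD43-ckit- cells (SD, n = 3). Bpgm, the bisphosphoglycerate mutase gene of red cells, went with Alas2, at 57.0 ± 17.7, 477.4 ± 106.4 and 6708 ± 1499 CPM in the same populations (-6.88 for CD43++ckit+ versus CD43-ckit-, adjusted p = 1.48e-06).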
